A study of Mus musculus with 5 samples.

Results

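The genes described here are 44 imprinted mouse genes, taken by symbol from a list arranged by chromosomal domain. All 44 were among the 23337 genes of the deposited table. They were followed in 5 RNA sequencing libraries of mouse embryonic fibroblasts of strain 129Sv, made immortal by SV40 T antigen, which inactivates the tumour suppressors p53 and RB, and grown under normal conditions. Of these libraries, 3 were labelled wild type (WT) and 2 were labelled SIRT3 -/- (KO), the genotype that lacks the mitochondrial deacetylase SIRT3. The design sets transcript levels of the genotypes side by side. No label says that libraries of a genotype came from separate lines or cultures, so a p-value below measures only the spread between libraries, and genotype cannot be told apart from other differences between the immortalized lines. The stage of the embryos is not given in the sources used here. RNA was selected on poly-T beads.

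An imprinted gene is transcribed mainly from the copy inherited from one parent. The choice is set by DNA methylation placed in the egg or the sperm at a control region, which often governs several genes of a domain, and the methylation is kept through cell division by factors such as ZFP57, TRIM28 and DNMT1. In several domains a long noncoding RNA made from one parental copy silences protein-coding genes on that same copy. Many imprinted genes act on fetal growth, and a number of them are switched down in most tissues after birth. The values here are totals over both parental copies, so they show how much of a transcript was present and not which copy made it.

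Read counts per library, recovered from the deposited values, lay between 33473103 and 41758681. Each value is a read count divided by the authors' size factor for its library and is called a normalized read count. Levels of different genes are compared as RPKM, which scales reads by gene length and sequencing depth. Sirt3, the targeted gene, was at 170, 149 and 118 normalized read counts in WT replicates 1, 2 and 3 and at 200 and 217 in KO replicates 1 and 2. The libraries labelled KO were thus the higher ones (log2 fold change 0.53, standard error 0.152, limma, adjusted p = 0.0044), and without KO replicate 2 this difference did not pass (adjusted p = 0.077). The gene totals do not show whether a deleted exon is missing, and since this level goes against the label, every direction below is between libraries as labelled, and KO stands for the libraries labelled so. Of 10 fibroblast markers 9 were tested, of which 2 rose and 5 fell, with summed levels of 5706 to 5902 RPKM in WT and 4912 to 5025 RPKM in KO, and the receptor gene Pdgfra went from 20013 to 1255 normalized read counts on average while Lum was near 0 in all libraries. Trophoblast markers, the placental cell type in which many imprinted genes are active, summed to at most 0.0235 RPKM, and those of muscle to at most 0.0847 RPKM. Markers of neurons summed to 14.4 to 15.8 RPKM in WT and 8.50 to 8.57 RPKM in KO, nearly all of it Tubb3, with Snap25 and Rbfox3 at 0. The sums for epithelium, endothelium and adipocytes were higher in KO, at most 0.478, 0.374 and 2.41 RPKM. That for blood was lower in KO, at 1.84 to 2.08 RPKM in WT and 1.51 to 1.77 RPKM in KO. Most of it was Cd68, while Csf1r was higher in KO. The part of these cell types in the results below was not tested.

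Differences were tested with limma on log2(normalized read count + 1) for the 13062 genes with 10 or more normalized read counts in at least 2 libraries. Fold changes are on that scale, with KO above WT as positive, and a gene is said to have risen or fallen where its Benjamini-Hochberg adjusted p, over all genes tested, was under 0.05. Of the 44 imprinted genes, 35 were tested, of which 17 rose, 9 fell and 9 did not pass. Among all genes tested, 32.6% rose and 32.6% fell. The 26 imprinted genes called make up 74.3% of those tested, beside 65.3% of all genes. Groups did not overlap for 26 of the imprinted genes, which is 74.3% beside 75.4% of all genes. A called difference of at least 2-fold was found for 13 imprinted genes, 37.1% of those tested, while 13% of all genes had one. At an adjusted p under 0.05 in the authors' deposited table, 14 imprinted genes were higher and 9 lower, where 50.5% of 15222 genes passed in either direction. The median log2 fold change was 0.13 for the imprinted genes and -0.0023 for all genes. Ppp1r9a and Zdbf2 reached 10 normalized read counts only in KO and Phlda2 only in WT, so these 3 passed the filter through the group where they were high and had to differ. Leaving them out, 15 rose and 8 fell of 32, and 10 (31.2%) had a called difference of at least 2-fold. These counts keep Mirg, which reached 10 in WT only in replicate 3, and Asb4, which reached it in KO only in replicate 2. Both thus also met the filter through the group where they were high. The members were chosen with results of these libraries known, and nothing particular to them is read from these counts. In bulk RNA, fewer cells that express a gene and less RNA per cell cannot be told apart.

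**Figure D1:**
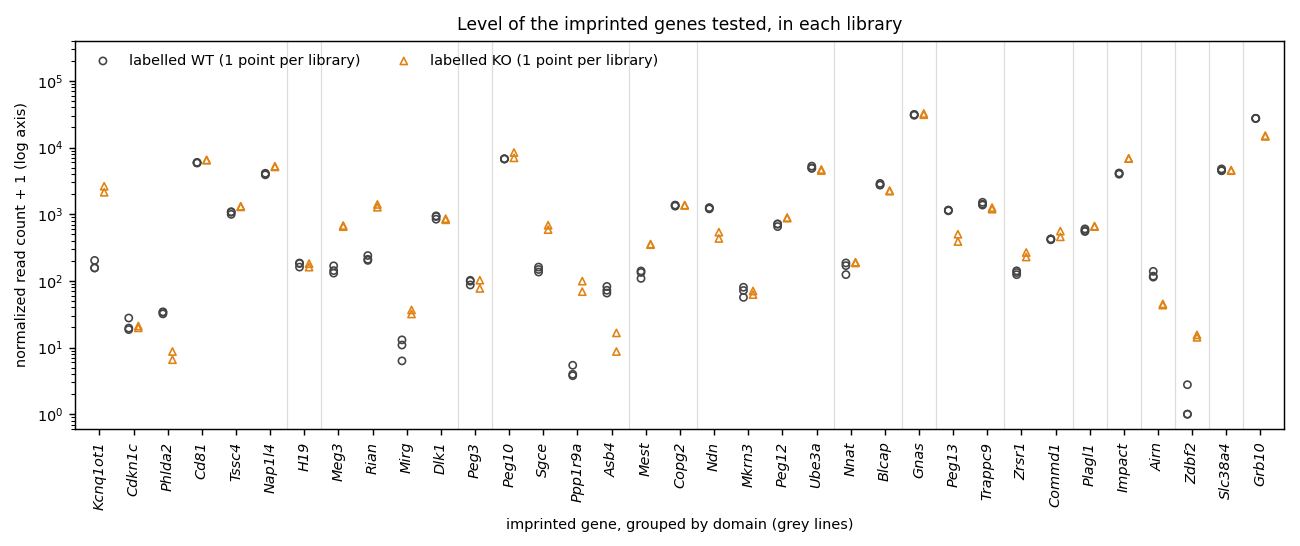
Normalized read count plus 1 (log axis) of the 35 imprinted genes tested, 1 point per library, with circles for the 3 libraries labelled WT and triangles for the 2 labelled KO. Grey lines separate the domains. Kcnq1ot1, Rian, Meg3, Sgce, Mest and Ppp1r9a lie higher in KO, and Asb4, Phlda2, Ndn, Peg13, Airn and Grb10 lower.

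**Figure D2:**
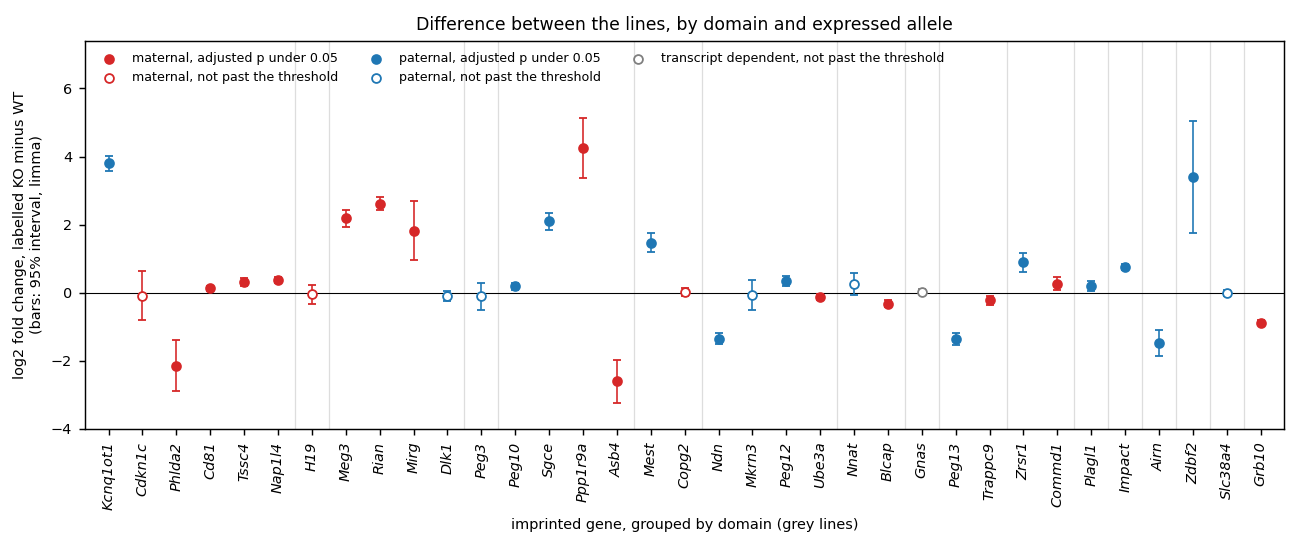
Log2 fold change of KO against WT for the same 35 genes, with the 95% interval from limma, in blue for genes known to be expressed from the paternal copy, red for the maternal copy and grey for Gnas, whose copy depends on the transcript. Filled points passed the test. Genes of both colours lie on both sides of 0, and in the Snrpn domain genes that passed lie on both sides. In the Kcnq1 and Peg10 domains the filled points below 0 are only Phlda2 and Asb4. Both met the filter through WT, so a fall of theirs is no test of a split.

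The Kcnq1 domain of distal chromosome 7 held the largest rise of a noncoding member. Kcnq1ot1 is a long RNA made from the paternal copy, antisense to Kcnq1, and is known to silence maternally expressed genes around it. It was at 202, 155 and 155 normalized read counts in WT and at 2133 and 2627 in KO. Both KO libraries lay far above all WT libraries, a 13.9-fold higher level (log2 fold change 3.80, standard error 0.110, limma, adjusted p = 1.3e-17). On the log2(RPKM + 0.1) scale the difference was 2.48. The whole 83437 bp of the gene (chromosome 7, 143213111 to 143296547, minus strand) were counted, so that the level per length stayed low, with means of 0.0554 RPKM in WT and 0.768 RPKM in KO. Of this length 100% lies inside Kcnq1 on the opposite strand. Whether reads were counted by strand is not given in the sources used here, so reads from unspliced RNA of Kcnq1 and from Kcnq1ot1 cannot be told apart. Reads in exons of Kcnq1, which encodes a potassium channel, were few in every library, at 1, 1 and 5 in WT and 3 and 3 in KO, and Kcnq1 was not tested.

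The promoter of Kcnq1ot1 is the imprinting control region of this domain, and its RefSeq window is therefore shown. Windows run from 250 bases before to 50 after a start site, and capitals mark the hexamer TGCCGC, on either strand (GCGGCA when read from the other strand), which ZFP57 is known to bind when methylated. The window of Kcnq1ot1 (chr7:143296498-143296797, minus strand, GRCm38.p6) holds 9 CG pairs and no match.
Kcnq1ot1: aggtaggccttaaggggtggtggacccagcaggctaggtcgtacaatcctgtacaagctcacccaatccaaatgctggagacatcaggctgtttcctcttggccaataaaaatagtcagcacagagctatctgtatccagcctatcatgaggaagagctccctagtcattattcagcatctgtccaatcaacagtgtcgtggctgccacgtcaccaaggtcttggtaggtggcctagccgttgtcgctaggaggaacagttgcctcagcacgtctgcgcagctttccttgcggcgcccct
Windows were found for 34 of the 44 genes, 50 in all, some of them overlapping. Of these, 11 windows (22%), from 10 genes, hold the hexamer, as do 11.6% of the 32851 windows of all genes. The median number of CG pairs was 14 for the imprinted genes and 7 for all genes.

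Among the genes around Kcnq1ot1 listed as maternally expressed, Nap1l4, Tssc4 and Cd81 rose, Cdkn1c did not pass and Phlda2 carries no test. The copy used here was not measured. Phlda2, which encodes a PH domain protein that limits placental growth, was lower in KO, at 30.9, 32.6 and 33.3 normalized read counts in WT and 7.71 and 5.56 in KO. Since it passed the filter through WT alone, its log2 fold change of -2.14 (standard error 0.364) is given as a description with no test. Behind these values stand 33 to 36 reads per WT library and 7 and 5 reads in KO. Cdkn1c, for the cell cycle inhibitor p57, was low in all libraries, at 18.6, 26.7 and 17.6 in WT and 18.7 and 20.02 in KO. Its groups overlapped, and its log2 fold change of -0.085 had a wide 95% interval, from -0.81 to 0.64. At the edges of the domain, Nap1l4, for a histone chaperone, rose from a mean of 3998 to 5180, Tssc4 from 1050 to 1300 and Cd81, for a tetraspanin of the cell surface, from 5918 to 6488, with log2 fold changes of 0.37, 0.31 and 0.13. Slc22a18, for a transporter, was at 0 to 8 reads per library, and Ascl2, for a trophoblast transcription factor, had 4 reads in WT replicate 3 and 0 elsewhere, and neither was tested.

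Genes around the domain that are on neither imprinted list were mostly higher too. Within 1 Mb of it, 14 of 18 genes tested rose and 0 fell. Among all genes 32.6% rose and 32.6% fell, which is the background for this and each later count of neighbours. Their median was 0.50 on the log2 scale, above the values of Nap1l4, Tssc4 and Cd81. These neighbours include Igf2as, which overlaps Igf2, at 2.90. Sirt3 itself lies on the same chromosome arm, 1.69 Mb before H19 and 2.33 Mb before Kcnq1ot1. The part of the chromosomal region in the differences of the domain's genes was not tested.

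H19 and Igf2 are neighbours on chromosome 7 that share enhancers and a methylated control region. H19, a noncoding RNA made from the maternal copy, was at 160, 181 and 184 normalized read counts in WT and 160 and 180 in KO. The groups overlapped and the log2 fold change was -0.042 with a 95% interval from -0.32 to 0.24 (limma, adjusted p = 0.80). Igf2, for the paternally expressed growth factor IGF2, comes from a second list of imprinted genes and was at 1.77, 2.97 and 3.70 in WT and 606 and 643 in KO. It had 2, 3 and 4 reads in the WT libraries and 550 and 578 in the KO libraries, so that it too passed the filter through KO alone. Its log2 fold change of 7.39 (standard error 0.313) is likewise a description. Per length, the mean of Igf2 in KO, 3.97 RPKM, was above that of H19, 1.75 RPKM, whereas in WT H19 was at 1.81 RPKM and Igf2 at 0.0180 RPKM.

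**Figure D3:**
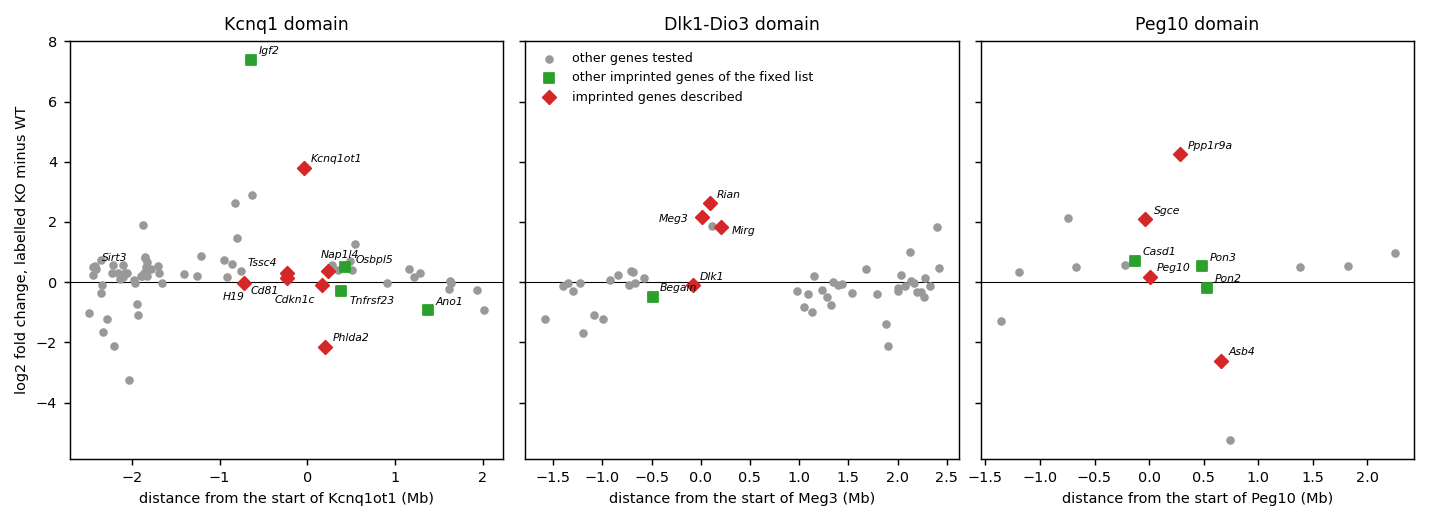
Log2 fold change of KO against WT by distance of a gene's middle from the start of Kcnq1ot1, Meg3 and Peg10 (Mb along the chromosome), for the imprinted genes described (red), other imprinted genes of a fixed list (green) and all other genes tested (grey). Igf2 at 7.39 and Kcnq1ot1 at 3.80 stand above genes near them, and H19 and Dlk1 lie near 0. In the Peg10 domain Ppp1r9a at 4.25 and Asb4 at -2.60 lie on opposite sides. Ppp1r9a and Asb4 met the filter through the group where they were high, so this is no test of a split.

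In the Dlk1-Dio3 domain of chromosome 12, the 3 maternally expressed noncoding RNAs rose and the paternally expressed Dlk1 did not pass the test. Meg3 (109540996 to 109571729) is the first of these RNAs along the chromosome, Rian carries small nucleolar RNAs and Mirg carries microRNAs. Rian was at 209, 202 and 239 normalized read counts in WT and at 1400 and 1270 in KO (log2 fold change 2.62, standard error 0.0938, limma, adjusted p = 4.5e-16). Meg3 was at 167, 130 and 142 in WT and at 675 and 649 in KO, a log2 fold change of 2.18. Mirg was at 5.30, 9.89 and 12.03 in WT and 30.8 and 35.6 in KO, a log2 fold change of 1.82. The groups were well apart for all 3, with Mirg resting on 6 to 13 reads per WT library. In WT only replicate 3 reached 10 for Mirg, so it met the filter through KO. Dlk1, for a transmembrane protein that holds back differentiation of fat cell precursors, was at 941, 840 and 920 in WT and 857 and 823 in KO. Its groups overlapped, and the 95% interval of its log2 fold change ran from -0.24 to 0.043. Within each library, the RPKM of Meg3 was 6.62, 5.75 and 5.73% of that of Dlk1 in WT and 29.4% in both KO libraries. That of Rian was 452 to 608% of that of Meg3 in WT and 748 and 705% in KO. Rtl1, a retrotransposon-derived gene that lies antisense to Meg3, was below the level for testing, with 5, 4 and 3 reads in WT and 7 and 9 in KO, and Dio3, for an enzyme that inactivates thyroid hormone, had 1 read in WT replicate 3 and 0 elsewhere.

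The promoter of Meg3 lies in a region that becomes methylated on the paternal copy, and is shown because the 3 RNAs after it rose together. Its window (chr12:109540746-109541045, plus strand, GRCm38.p6) holds 13 CG pairs and 1 match to the hexamer.
Meg3: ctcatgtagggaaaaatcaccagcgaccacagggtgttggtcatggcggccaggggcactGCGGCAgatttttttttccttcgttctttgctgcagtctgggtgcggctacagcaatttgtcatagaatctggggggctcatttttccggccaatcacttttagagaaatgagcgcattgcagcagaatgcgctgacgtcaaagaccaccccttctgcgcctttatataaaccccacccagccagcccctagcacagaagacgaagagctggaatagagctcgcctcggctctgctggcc
The window before the annotated start of Rian holds 0 CG pairs and no match. Among 23 other genes tested within 1 Mb of the domain, 5 rose and 11 fell (background 32.6% each way) and the median was -0.091 on the log2 scale. The highest value among them, 1.88, was that of AF357359, a small nucleolar RNA within the span of Rian and thus not a separate neighbour.

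The Peg10 domain of proximal chromosome 6 has 4 members, of which Ppp1r9a and Asb4 met the filter through the group where they were high. Sgce, for epsilon-sarcoglycan, and Peg10, a retrotransposon-derived gene, are both made from the paternal copy and start 102 bp apart on opposite strands. Sgce was at 160, 135 and 147 normalized read counts in WT and at 586 and 682 in KO (log2 fold change 2.10, standard error 0.117, limma, adjusted p = 9.8e-13). Peg10 was at 6768, 6731 and 6753 in WT and at 7000 and 8409 in KO, a log2 fold change of 0.18. This rise rests on KO replicate 2, without which the log2 fold change was 0.052 and did not pass (limma, adjusted p = 0.22), while without KO replicate 1 it was 0.32. It did not pass in the authors' deposited table either (adjusted p = 0.093), nor with DESeq2 on recovered reads (adjusted p = 0.23) or, in limma, with no filter on low values (adjusted p = 0.052). The RPKM of Sgce was 8.40, 7.11 and 7.74% of that of Peg10 in the WT libraries and 29.8 and 28.8% in the KO libraries, so the pair with adjoining starts differed unequally.

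The maternally expressed members of the Peg10 domain each met the filter through a different group. Their opposite directions are thus no test of a split. Ppp1r9a, for neurabin, which ties a protein phosphatase to actin, was at 4.42, 2.97 and 2.78 normalized read counts in WT and at 98.0 and 67.8 in KO. Its WT values rest on 5, 3 and 3 reads, and it passed the filter through KO alone, so its log2 fold change of 4.25 (standard error 0.420) is given as a description with no test. On the log2(RPKM + 0.1) scale it was 1.60. Asb4, for a subunit of a ubiquitin ligase, fell from 64.5, 71.2 and 81.4 in WT to 7.71 and 15.6 in KO, a log2 fold change of -2.60. In KO only replicate 2 reached 10, so Asb4 met the filter through WT. Casd1, from the second list of imprinted genes, lies next to Sgce and rose by 0.71 on the log2 scale. Of the 5 other genes tested within 1 Mb, 4 rose and 1, Pdk4, fell (background 32.6% each way), and their median was 0.50 on the log2 scale.

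Mest, a paternally expressed hydrolase gene on chromosome 6 (30733506 to 30748466), rose. It was at 133, 108 and 140 normalized read counts in WT and at 348 and 355 in KO (log2 fold change 1.47, standard error 0.136, limma, adjusted p = 4.2e-09). Copg2, a coat protein gene that overlaps the end of Mest on the opposite strand, was at 1320, 1355 and 1368 in WT and 1353 and 1369 in KO, and its log2 fold change of 0.014 had a 95% interval from -0.098 to 0.13. The RPKM of Mest was 6.34 to 8.13% of that of Copg2 in WT and 20.5 and 20.6% in KO. Without the use of strand given, reads of Mest and Copg2 cannot be told apart where they overlap. The germline-methylated start of Mest is shown because it holds 2 matches to the hexamer (chr6:30737800-30738099, plus strand, GRCm38.p6, 17 CG pairs).
Mest: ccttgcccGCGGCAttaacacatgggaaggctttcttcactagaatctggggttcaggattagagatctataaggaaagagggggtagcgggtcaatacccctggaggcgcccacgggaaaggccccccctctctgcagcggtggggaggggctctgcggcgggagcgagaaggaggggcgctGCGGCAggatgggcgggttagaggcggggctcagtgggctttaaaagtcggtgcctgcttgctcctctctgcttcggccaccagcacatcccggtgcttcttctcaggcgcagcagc
Of 12 other genes tested within 1 Mb of Mest and Copg2, 7 rose and 0 fell (background 32.6% each way), and their median was 0.19 on the log2 scale.

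The paternally expressed genes of the Snrpn domain, which in humans is the Prader-Willi region, split. Ndn, for the growth-restraining protein necdin (chromosome 7, 62348277 to 62349928), fell from 1252, 1237 and 1201 normalized read counts in WT to 536 and 431 in KO (log2 fold change -1.35, standard error 0.0784, limma, adjusted p = 1.9e-12). Peg12, a relative of the FRAT genes of WNT signalling, rose from 708, 651 and 714 to 871 and 890, a log2 fold change of 0.35. Mkrn3, for a RING finger ubiquitin ligase, was at 70.7, 79.1 and 55.5 in WT and 69.4 and 61.2 in KO, and did not pass (log2 fold change -0.055, 95% interval from -0.50 to 0.39). The RPKM of Ndn went from 269 to 304% of that of Peg12 in WT to 98.4 and 77.6% in KO.

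Magel2, a relative of Ndn, and Snrpn, for a spliceosomal protein, were at 0 in all 5 libraries. A count of 0 allows up to 3 reads, which is 2.65 to 3.34 normalized read counts depending on the library. Snurf, which shares a transcript with Snrpn, was at 0 as well. How reads that fall on both genes were counted is not given in the sources used here, so the 0 of Snrpn is not read as absence. Ube3a, a ubiquitin ligase gene that is imprinted in neurons and made from both copies in most other cells, was lower in KO, with a log2 fold change of -0.13, from a mean of 5024 to 4594. Leaving out WT replicate 2 or KO replicate 2 ended this call (limma, adjusted p = 0.071 and 0.11), as did edgeR on recovered reads (adjusted p = 0.075) and DESeq2 (adjusted p = 0.14).

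Of 3 other gene symbols tested within 1 Mb of the Snrpn domain, 0 rose and 2 fell (background 32.6% each way). C230091D08Rik, which fell, and D7Ertd715e, which did not pass, have the same position (59272737 to 60450177), inside the domain. They are thus not separate neighbours, and only Otud7a, which fell, has a position of its own.

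In the Peg3 domain of proximal chromosome 7, Peg3, for a zinc finger protein that acts in growth and metabolism, was the one gene tested. It was at 85.7, 97.9 and 101 normalized read counts in WT and 76.0 and 101 in KO, and its log2 fold change of -0.11 had a 95% interval from -0.49 to 0.28. Usp29, which starts next to Peg3 on the opposite strand, and Zim1 were at 0 in all 5 libraries.

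Several imprinted genes lie inside another gene, and their level is best read beside that of the host. Peg13, a paternally expressed noncoding RNA, lies wholly inside Trappc9 on the same strand (chromosome 15, 72805602 to 72810324). It fell from 1145, 1123 and 1150 normalized read counts in WT to 388 and 499 in KO (log2 fold change -1.37, standard error 0.0842, limma, adjusted p = 5.2e-12). Trappc9, for a subunit of a vesicle tethering complex, fell by 0.23 on the log2 scale, from a mean of 1430 to 1222. The RPKM of Peg13 was 121 to 130% of that of Trappc9 in WT and 51.6 and 63.0% in KO, with no overlap between groups. Reads from unspliced RNA of Trappc9 and from Peg13 cannot be told apart, since both lie on the same strand.

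Zrsr1, a paternally expressed gene for an RNA-binding protein related to U2AF, lies wholly in Commd1 on the opposite strand. Since the use of strand is not given, reads of both cannot be told apart where they overlap. Zrsr1 rose from 123, 140 and 132 normalized read counts in WT to 265 and 227 in KO (log2 fold change 0.89, standard error 0.137, limma, adjusted p = 7.4e-06). Commd1, for a copper-handling protein, was at 424, 422 and 413 in WT and 556 and 456 in KO, a log2 fold change of 0.26 that did not pass without KO replicate 1 (limma, adjusted p = 0.305), with DESeq2 on recovered reads (adjusted p = 0.095) or in the authors' deposited table (adjusted p = 0.051). Of 13 other genes tested within 1 Mb, 8 rose and 0 fell (background 32.6% each way), and their median was 0.30 on the log2 scale.

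Nnat, for the small membrane protein neuronatin, lies wholly in Blcap on the opposite strand. Since the use of strand is not given, reads of both cannot be told apart where they overlap. Nnat was at 185, 168 and 123 normalized read counts in WT and 189 and 185 in KO, so that WT replicate 1 lay between the KO libraries, and did not pass (log2 fold change 0.26, 95% interval from -0.071 to 0.58). Blcap fell by 0.32 on the log2 scale, from a mean of 2798 to 2237. Airn, a paternally expressed RNA that silences the growth factor receptor gene Igf2r on the same copy, fell from 138, 113 and 117 to 44.1 and 42.3 (log2 fold change -1.48, standard error 0.188, limma, adjusted p = 5.5e-07). The counted length of Airn was 2188 bp of a gene that spans 118574 bp, so the value reflects a small part of it. Igf2r, which overlaps Airn on the opposite strand and belongs to the second list, was lower, with a log2 fold change of -0.34, and without strand the reads of both cannot be told apart where they overlap.

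**Figure D4:**
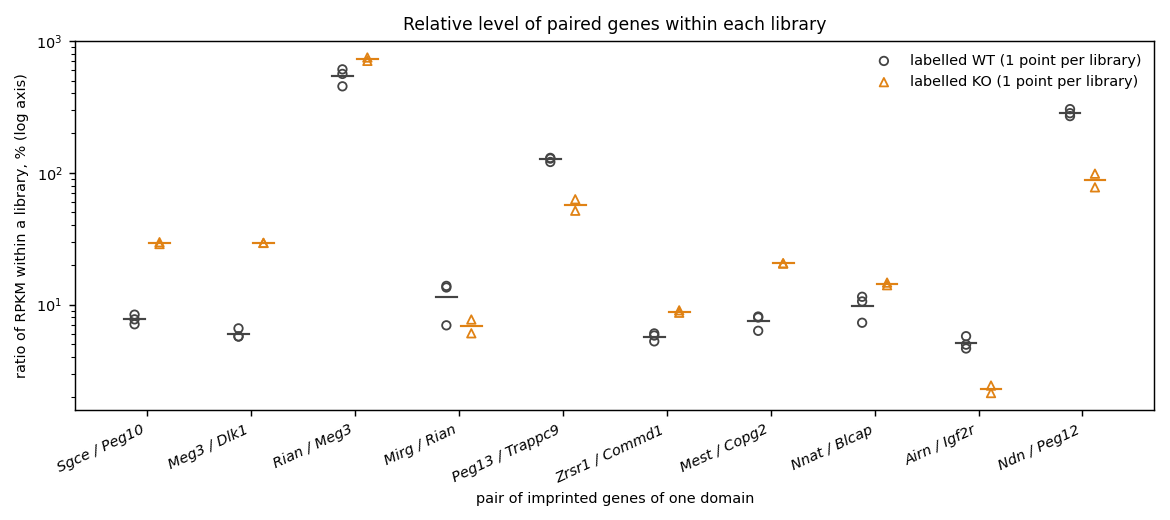
Ratio of the RPKM of 2 imprinted genes of one domain within each library, in percent on a log axis, with circles for WT, triangles for KO and bars for the group means. Of the 10 pairs, the groups overlap for Mirg and Rian (6.98 to 13.9% in WT, 6.07 and 7.72% in KO) and not for the other 9. The ratio is higher in KO for Sgce, Meg3, Rian, Zrsr1, Mest and Nnat and lower in KO for Peg13, Airn and Ndn. The pairs were chosen after their values were seen and carry no test.

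Grb10, Gnas and Cd81 were the 3 imprinted genes with the highest level per length in both groups. Grb10, for an adaptor protein that restrains insulin and IGF receptors and is maternally expressed outside neurons, was first in WT at 143, 144 and 144 RPKM and behind Gnas and Cd81 in KO at 77.3 and 78.3 RPKM. In WT it had 27362 ± 109 normalized read counts (mean ± SD, n = 3). In KO it had 14887 ± 279 (n = 2), and the fall was -0.88 on the log2 scale (standard error 0.0357, limma, adjusted p = 4.2e-15). Gnas, for the stimulatory G protein subunit, was at 138 RPKM in WT and 141 RPKM in KO on average and did not pass (log2 fold change 0.035, 95% interval from -0.042 to 0.11). Its imprinted transcripts start at different promoters and are not separated in the table. Slc38a4, for an amino acid transporter made from the paternal copy, was at 31.7 RPKM in WT and 31.2 RPKM in KO, with a 95% interval of its log2 fold change from -0.10 to 0.068.

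Impact, a paternally expressed gene whose protein restrains the amino acid sensing kinase GCN2, rose from 3977, 4090 and 4143 normalized read counts in WT to 6855 and 6817 in KO (log2 fold change 0.75, standard error 0.0392, limma, adjusted p = 3.5e-13). Of 10 other genes tested within 1 Mb of it, 1 rose and 4 fell (background 32.6% each way). Plagl1, for a zinc finger transcription factor, was at 601, 568 and 549 in WT and 661 and 652 in KO, a log2 fold change of 0.20 (limma, adjusted p = 0.028). This call was lost in 9 of 15 alternative settings, namely without WT replicate 2, WT replicate 3, KO replicate 1 or KO replicate 2 (limma, adjusted p = 0.062, 0.11, 0.096 and 0.067), on the RPKM scale (0.088), with a replicate block (0.12), in the authors' deposited table (0.093), with edgeR (0.058) and with DESeq2 (0.17). Zdbf2, a paternally expressed gene for a zinc finger protein, had 2 reads in WT replicate 1, none in the other WT libraries and 12 and 13 reads in KO, a ratio of 22.3 with an exact 95% counting interval from 5.56 to 194. It passed the filter through KO alone, and on the log2(RPKM + 0.1) scale it did not pass the test (limma, adjusted p = 0.16).

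Grouped by the copy that is usually expressed, both kinds of gene were found on both sides. This copy is background that was not measured in these fibroblasts. For some genes, such as Ube3a and Blcap, it depends on the tissue, so the groups need not hold here. Of 17 paternally expressed genes tested 9 rose and 3 fell, and of 17 maternally expressed genes 8 rose and 6 fell, where 32.6% of all genes rose and 32.6% fell. Without Zdbf2, Ppp1r9a and Phlda2, which had to differ, the counts were 8 and 3 of 16 paternally expressed genes and 7 and 5 of 15 maternally expressed genes. The 15 still include Mirg and Asb4, which met the filter through the group where they were high. The median log2 fold changes over the 17 of each kind were 0.20 and 0.014. Among reciprocally imprinted neighbours, Meg3 rose while Dlk1 did not pass, Igf2 was higher in KO while H19 did not pass, and Airn and Igf2r both fell.

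Of a second list of 32 imprinted genes that are not among the 44, 18 were tested, of which 7 rose, 8 fell and 3 did not pass. The 15 called are 83.3% of those tested, beside 65.3% of all genes, and include Igf2, which passed the filter through KO alone. Without it, 6 rose and 8 fell of 17. Besides Igf2, the largest rise was that of Sfmbt2, for a Polycomb-type protein active in the placenta, which went from 10.6, 6.92 and 9.25 normalized read counts in WT to 109 and 112 in KO, a log2 fold change of 3.51. In WT only replicate 1 reached 10, so Sfmbt2 too met the filter through KO. Chrac1, Casd1 and Cobl rose by 0.63, 0.71 and 0.76. Dcn, for the matrix proteoglycan decorin, fell from 225, 195 and 192 to 47.4 and 32.2, a log2 fold change of -2.35, and the chloride channel gene Ano1 fell with -0.94. These are the called genes of the list with at least a 1.5-fold difference, and Igf2r was added above as the partner of Airn.

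Of 19 factors that set, keep or remove the methylation and chromatin marks of imprints, 17 were tested, and 7 rose and 5 fell. These 12 are 70.6% of those tested, near the 65.3% of all genes, so the count is no result about the factors. Zfp57, whose protein binds methylated control regions, rose from 413, 414 and 401 normalized read counts in WT to 748 and 687 in KO, a log2 fold change of 0.81 (limma, adjusted p = 1.8e-08). Tet2, for an enzyme that oxidizes methylcytosine, fell from a mean of 1044 to 678, a log2 fold change of -0.62. The maintenance methyltransferase gene Dnmt1 and its partner Uhrf1 differed less, with log2 fold changes of -0.34 and 0.35, and are named for their role although under 1.5-fold. DNA methylation was not measured in these files.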

How the data were processed

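RNA taken on poly-T beads from 3 WT and 2 KO samples was sequenced as Nextera XT libraries with a NextSeq, per the labels' protocols. STAR, DESeq2 and the build mm10 are named in the submitters' processing notes with no version or role. No source used here gives the counting program, its annotation or its use of strand. In all, the authors deposited 1 table with a normalized read count signal (reads divided by a size factor) and RPKM for each library, and their own comparison as a log2 fold change, a score (the Wald statistic) and a p-value with its adjusted value.

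From the low values, 1 read was worth 0.884, 0.989 and 0.925 normalized read counts in WT and 1.10 and 1.11 in KO, and 100% of values were whole reads within 0.1 read. Totals were 33473103 to 41758681 reads, which hold counting error only and no molecular identifiers. The deposited values are normalized, so the main test was limma 3.58.1 (trended prior, R 4.3.3) on log2(normalized read count + 1), over 13062 genes with 10 or more in at least 2 libraries, in all 5 libraries, 2-sided, Benjamini-Hochberg adjusted. The same fit was also run on simulated counts, with a common spread setting for all genes. edgeR 4.0.16 and DESeq2 1.42.0 were run on recovered reads of 4 libraries, leaving out WT replicate 2 by a rule against steps near 1. Its values were whole reads too, so the omission was a choice and not a failed check. The other alternatives were filters, pseudocounts, TMM rescaling, RPKM, a replicate block, leaving out each library and the authors' comparison.

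The counted length per gene was worked out from reads and RPKM. Positions came from RefSeq genes of GRCm38.p6, which is the build mm10, overlaps from GENCODE M21, and promoter windows from RefSeq. Every member of the list was accounted for, and of the other imprinted genes and imprint factors, called genes of at least 1.5-fold were named. Members and lists were chosen with earlier results of these data known. Within a group, no pair of libraries was alike within sampling noise (mean chi-square per gene 3.45 to 7.60).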

Additional observations from a re-analysis of the deposited data

How the results depend on the processing

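Over 15 alternatives, 14 to 17 imprinted genes rose and 7 to 9 fell, and 21 of the 26 called kept call and direction in every alternative run that tested them. The other 5, Plagl1, Peg10, Commd1, Ube3a and Zdbf2, lost theirs in 9, 4, 3, 4 and 1 of them. Among the 21 are Phlda2, Ppp1r9a, Mirg and Asb4, which met the filter through the group where they were high. That they kept their call is therefore no support for it. None of the 26 reversed, and the 9 not called never passed. Sirt3 ranged from 0.39 to 0.64 on the log2 scale when each library was left out in turn. Values near 0 changed sign with the cause not tested. With each library left out, Copg2 ranged from -0.00061 to 0.025, Cdkn1c from -0.19 to 0.095, Mkrn3 from -0.20 to 0.055, Slc38a4 from -0.038 to 0.0087, H19 from -0.13 to 0.044 and Peg3 from -0.31 to 0.096. With edgeR and DESeq2, which lacked WT replicate 2, Cdkn1c was at 0.10 and 0.099, Mkrn3 at 0.049 and 0.047 and Slc38a4 at 0.012 and 0.0079. On the log2(RPKM + 0.1) scale Kcnq1ot1 was at 2.48, Ppp1r9a at 1.60 and Zdbf2 at 0.36, and in the authors' deposited table Phlda2 was at -1.36, Mirg at 1.16 and Zdbf2 at 1.18. With a pseudocount of 5, Zdbf2 was at 1.77. TMM rescaling moved the median of all genes by 0.00235. The deviations of same-numbered libraries did not correlate (r = -0.0098 and -0.0050). The deviations of the 2 KO libraries from their mean mirror each other, and WT replicate 3 has no partner. These values thus cannot show whether the replicate number is only a name. With the replicate number as a block, 16 imprinted genes rose and 9 fell, and Sirt3 was at 0.39 (limma, adjusted p = 0.030). Depth limits Kcnq1, Slc22a18, Ascl2, Rtl1, Dio3 and Zdbf2, with at most 13 reads in a library.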
